A study of Mus musculus with 36 samples.

Results

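Shank3 and WT mice killed 4 h after a forced swim were compared for ribosome-bound RNA of the cortex, from a pulldown aimed at pyramidal neurons. The libraries were chosen by their labels for genotype and time, which gave 11 of the 36 libraries of the series, 6 from Shank3 mice and 5 from WT mice. All of them belonged to the cohort labelled 2. The Shank3 group carried the genotype Shank3(∆C/+);HA-Rpl22(f/+);Camk2a-Cre(+/-) and the WT group Shank3(+/+);HA-Rpl22(f/+);Camk2a-Cre(+/-), on the strain given as C57BL6JL. Every mouse therefore carried one floxed HA-Rpl22 allele and the Camk2a-Cre transgene, although the extraction protocol names HA-Rpl22(f/f) for both. The water was at 25 °C, and the swim is given as 5 min in the treatment label and 6 min in the protocol. Age and sex were not given in the sources used here, nor was it stated whether 1 library is 1 mouse.

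RiboTag adds an HA tag to the ribosomal protein Rpl22 in cells that express Cre, and an antibody to the tag then pulls down ribosomes with the RNA they carry. Camk2a drives Cre mainly in excitatory neurons of the forebrain, so that the pulldown is aimed at a mixed population of pyramidal neurons of all layers. The labels name no library of RNA from before the pulldown, so enrichment was not measured here. Shank3 is a scaffold protein of the postsynaptic density that links glutamate receptors, through other scaffolds, to the actin cytoskeleton. Swimming is a stressor that activates cortical neurons and releases glucocorticoids. Its early response runs through immediate early genes and is followed by slower activity-regulated and hormone-regulated genes. In these bulk samples, fewer cells of a type and less RNA per cell cannot be told apart.

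The 6 Shank3 libraries held 1.28 to 2.88 M counts and the 5 WT libraries 1.49 to 3.52 M, so that genes with few counts were measured with low precision. One property of the libraries bears on many results. Much of the signal lay on rows that the annotation places antisense to coding genes, and the pair share, the percent of the counts of such antisense and coding pairs that lay on the coding rows, varied between libraries. It was 33.1%, 32.7% and 30.1% in Shank3 replicates 1, 3 and 5 and 17.5%, 21.8% and 18.2% in Shank3 replicates 2, 4 and 6. In WT replicates 1 to 5 it was 21.4%, 17.0%, 23.1%, 22.6% and 31.6%. Shank3 replicates 1, 3 and 5 and WT replicate 5 were above 30%. Under 30%, Shank3 replicates 2 and 6 were below WT replicates 1, 3 and 4, while WT replicate 2 was the lowest. The pair share was thus not balanced between the genotypes in those libraries either. The means were 25.5% ± 7.23 in Shank3 and 23.2% ± 5.31 in WT (SD, n = 6 and 5). An exact two-sided permutation test of their difference gave p = 0.563, which with so few libraries does not show that the groups were balanced. For the totals the same exact two-sided permutation test gave p = 0.662. Pyramidal markers were abundant in both groups, with a summed level of 2380 to 3986 CPM (counts scaled to library size by edgeR's TMM factors) in Shank3 and 2454 to 4133 CPM in WT, and all 16 of them were measured.

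One gene passed the test at 4 h. Slc7a11, the cystine and glutamate exchanger xCT, was 30.1-fold higher in Shank3 mice than in WT mice. That is a log2 fold change of 4.91 ± 0.549 (SE), with an adjusted p of 1.47e-06 by edgeR's quasi-likelihood test with Benjamini-Hochberg adjustment. It was the only call of that fit among 11341 genes, which is 0.00882% of those tested, and 0 of 11341 genes (0%) were called lower in it. Without adjustment, 170 genes were higher and 58 lower at p under 0.05 by edgeR, which is 1.5% and 0.511% of the genes tested. That unadjusted count of 228 was 79 without Shank3 replicate 3 and 1112 without WT replicate 5, and moved by over 1.5 times with each of the 11 libraries left out. DESeq2 and limma-voom also called 1 gene each, while edgeR without a filter on low counts called 5 (2 higher, 3 lower) and limma-voom with quality weights 2770 (1289 higher, 1481 lower).

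Slc7a11 (ENSMUSG00000027737) lies on the minus strand of chromosome 3, from 49892526 to 50443614 in mm10. Its product imports cystine in exchange for glutamate, feeds glutathione synthesis and sets much of the extracellular glutamate in brain. Its promoter is shown because it is the promoter of the gene that was called, and because Slc7a11 is a known target of ATF4, a factor that binds C/EBP-ATF response elements. The 250 bases before the RefSeq start, read from the GRCm38.p6 promoter table as chr3:50443614-50443863 on the minus strand, are given with TGATGCAAA and its reverse complement TTTGCATCA in capitals.
Slc7a11: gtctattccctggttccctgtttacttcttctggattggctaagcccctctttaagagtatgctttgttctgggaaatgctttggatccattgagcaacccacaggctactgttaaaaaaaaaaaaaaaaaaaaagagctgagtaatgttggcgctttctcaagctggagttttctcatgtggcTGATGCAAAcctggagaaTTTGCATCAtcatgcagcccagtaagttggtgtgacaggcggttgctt
The motif matched 2 times, at -66 and -48 from the start, once on each strand. Of 32851 promoter windows of the same length in the table, 74 held it on either strand, which is 0.225%. The core of the antioxidant response element, searched as TGACNNNGC on both strands, was found 0 times in this window and in 10.2% of all windows. These are matches of letters and not shown to be bound in these cells.

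In the 6 Shank3 libraries Slc7a11 had a lowest level of 225.0 CPM, a median of 268.8 CPM and a highest level of 334.3 CPM. In the 5 WT libraries it had 7.01, 4.70, 11.1, 13.9 and 8.34 CPM. Every Shank3 library was above every WT library, with no overlap and a wide gap. The deposited counts behind these levels were 1302, 528, 1060, 831, 1011 and 413 in Shank3 replicates 1 to 6, against 15, 10, 34, 40 and 50 in WT replicates 1 to 5. The means were 276.9 ± 41.1 CPM in Shank3 and 9.01 ± 3.59 CPM in WT (SD, n = 6 and 5). An exact two-sided permutation test of the difference in log2 CPM gave p = 0.00433, the smallest that 462 arrangements of 6 against 5 libraries allow. The difference was as large in the 7 libraries with a pair share under 30%, where the log2 fold change was 4.82 and the adjusted p 0.00987 by edgeR's quasi-likelihood test. Genes annotated on the opposite strand lie in its introns, and those checked there (Gm37854, Gm37498, Gm37826 and Gm2345) had 0 counts in all 11 libraries.

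**Figure D1:**
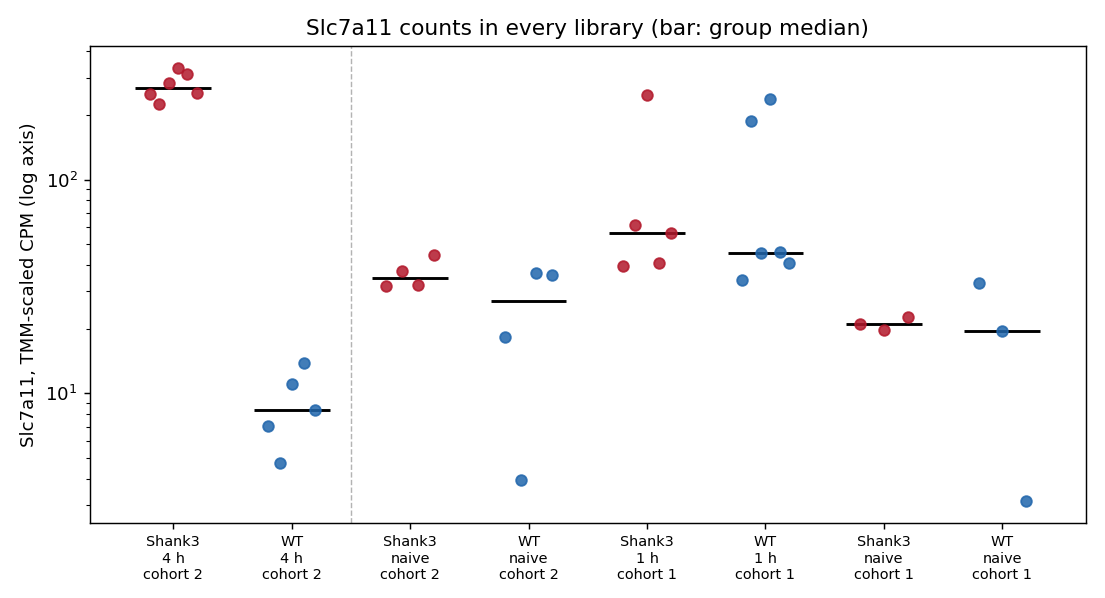
Slc7a11 in all 36 libraries as TMM-scaled CPM on a log axis, by genotype, time and cohort. Each point is 1 library and the bar is the group median. The 6 Shank3 libraries at 4 h sit between 225.0 and 334.3 CPM and the 5 WT libraries at 4 h between 4.70 and 13.9 CPM, while 3 of the 1 h libraries of both genotypes lie between 188.3 and 249.0 CPM.

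The genotype gap in Slc7a11 was not seen at this size in the other groups. In naive mice of cohort 2 its levels were 31.8, 37.3, 32.1 and 44.4 CPM in Shank3 and 18.5, 3.95, 36.7 and 35.9 CPM in WT. These ranges overlapped, and the log2 fold change was 0.54 ± 0.628 (SE). Rows of ribosomal RNA genes held 13.5% and 38.6% of the counts in naive Shank3 replicates 6 and 7 of this cohort. They held 1.56% and 1.24% in naive Shank3 replicates 4 and 5, and 0.99% to 1.69% in the naive WT libraries of cohort 2. All values given for naive mice of cohort 2 include these libraries, and the part of ribosomal RNA in them was not tested. At 1 h after the swim, in cohort 1, Slc7a11 was at 39.3, 61.3, 249.0, 41.0 and 56.3 CPM in Shank3. In WT it was at 33.99, 188.3, 45.2, 238.1, 45.8 and 41.0 CPM. One Shank3 and 2 WT libraries were high at 1 h, and the log2 fold change there was -0.16 ± 0.447. Within cohort 2 the mean was 36.4 CPM in naive and 276.9 CPM in 4 h Shank3 mice. In WT mice it was 23.8 CPM in naive and 9.01 CPM in 4 h libraries, so the WT mean was lower at 4 h. Set against the naive difference of the same cohort, the 4 h difference was larger by a log2 fold change of 4.37 ± 0.817, with an adjusted p of 0.0615 by edgeR's quasi-likelihood test, which missed the threshold of 0.05. Over 24 alternatives this adjusted p ran from 8.8e-29 to 0.9999 by edgeR, limma or DESeq2, and it passed in 6 of them. No gene passed for this interaction (0 of 11341, with 302 genes or 2.66% at an unadjusted p under 0.05 by edgeR). DESeq2 called 1 gene.

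None of the partners of xCT passed the test. Slc3a2, the heavy chain that xCT needs to reach the membrane, had a lowest level of 5.11, a median of 7.29 and a highest of 9.60 CPM in Shank3, and 6.55, 4.23, 5.87, 3.83 and 6.84 CPM in WT. The groups overlapped, with a log2 fold change of 0.46 ± 0.268. Of the 28 genes listed for cystine transport and glutathione, 22 were measured, 14 of them above 0 and 8 below, and Slc7a11 alone passed. The median log2 fold change of the 22 was 0.10, beside 0.0046 over all genes, of which 50.8% were above 0. It was 0.02 with the pair share as a covariate and 0.05 in the libraries of low pair share. Gclc, the catalytic subunit of the enzyme that starts glutathione synthesis, had a log2 fold change of -0.06 ± 0.162, and its modifier subunit Gclm 0.35 ± 0.263. Gss and Gsr, which finish and recycle glutathione, had -0.19 ± 0.214 and 0.03 ± 0.252. Gpx1, a glutathione peroxidase, had 0.55 ± 0.318, and Ggct, which breaks down gamma-glutamyl peptides, -0.43 ± 0.215. Chac1, a glutathione-degrading enzyme, had too few counts for the test, with 47 counts over the Shank3 libraries and 37 over the WT libraries.

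Targets of 2 regulators of Slc7a11, the stress factor ATF4 and the antioxidant factor NRF2, showed no called gene besides it. Of 30 genes listed for the integrated stress response, 20 were measured, 14 above 0 and 6 below, with a median log2 fold change of 0.06. Atf4 had a lowest level of 25.9, a median of 34.2 and a highest of 43.6 CPM in Shank3, and 29.9, 33.4, 35.2, 30.6 and 38.7 CPM in WT, which overlapped throughout. Asns, the asparagine synthetase, had a log2 fold change of 0.22 ± 0.221, Psat1 of serine synthesis 0.17 ± 0.297, and Ddit3, which encodes CHOP, -0.04 ± 0.199. Slc7a5, the large neutral amino acid transporter, had 0.79 ± 0.469 at levels of 0.805 to 6.50 CPM in Shank3 and 0.935 to 3.26 CPM in WT. Trib3 had 0 counts in all 11 libraries. Of 32 NRF2 antioxidant genes, 25 were measured, 18 above 0 and 7 below, with a median of 0.09, which was 0.04 with the pair share as a covariate and -0.03 in the libraries of low pair share. Among them Txnrd1, the thioredoxin reductase, had 0.00 ± 0.204, Srxn1 -0.10 ± 0.193 and Tkt, a transketolase, 0.52 ± 0.269.

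**Figure D2:**
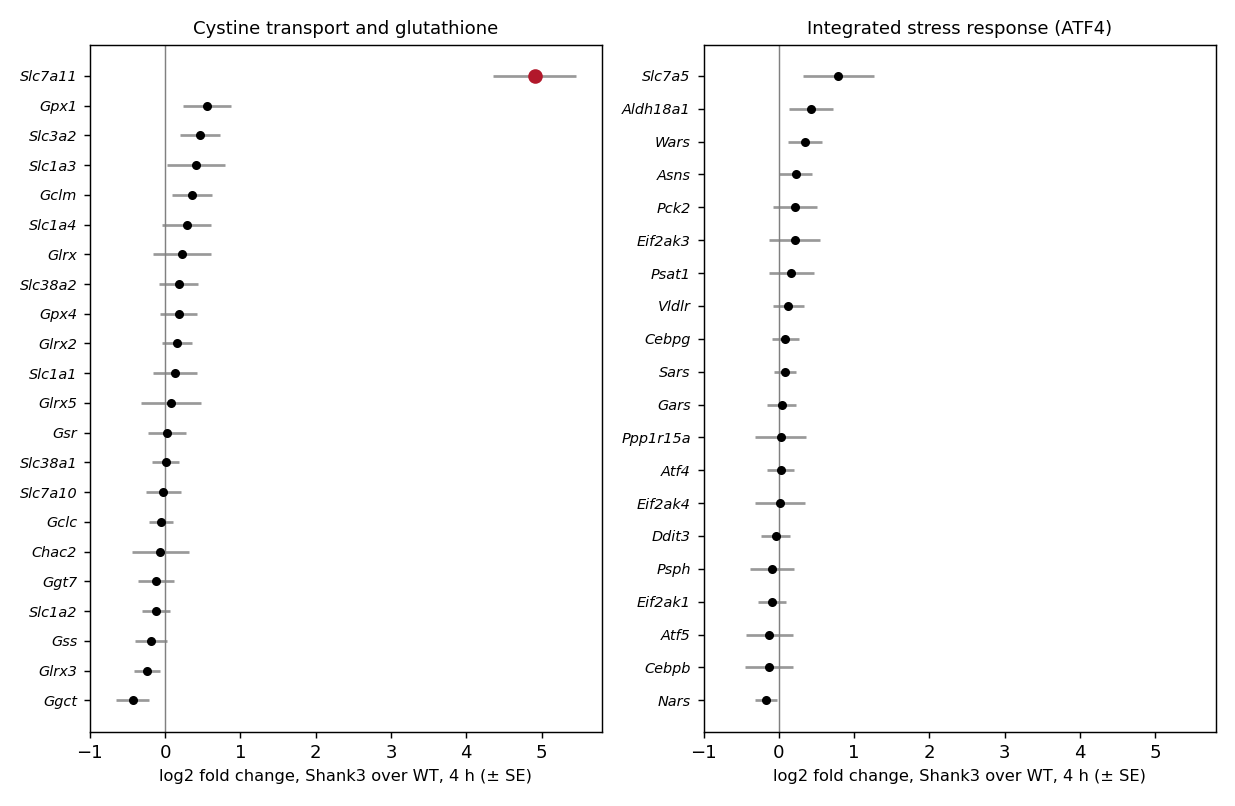
Log2 fold change, Shank3 over WT at 4 h, with its SE for the 22 measured genes of cystine transport and glutathione (left) and the 20 of the integrated stress response (right). Slc7a11, marked in red as the one gene past the threshold, stands at 4.91, and the other members lie between -0.43 and 0.79.

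Some of the genes that neighbour Slc7a11 on chromosome 3 are given here, with log2 fold changes between -0.22 and 0.40. Noct, a clock-controlled phosphatase, had a log2 fold change of 0.31 ± 0.248, Setd7, a lysine methyltransferase, -0.22 ± 0.138, Elf2 -0.09, Ndufc1 0.17, Naa15 -0.09 and Maml3 0.17. Foxo1, a forkhead factor, had 0.40 ± 0.396. None passed, and their names were chosen after their values were seen.

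The Shank3 row itself was higher in Shank3 mice without passing. It had a lowest level of 11.7, a median of 22.9 and a highest of 34.6 CPM in Shank3, and 6.55, 9.41, 13.4, 11.8 and 19.7 CPM in WT. The groups overlapped, the highest Shank3 values came from replicates 3, 1 and 5 and the highest WT value from replicate 5, all libraries of high pair share. The log2 fold change was 0.85 ± 0.235, 0.67 with the pair share as a covariate, 0.44 in the libraries of low pair share, and 1.30 in naive mice of cohort 2. Gm15609, an antisense transcript opposite Shank3 exons from 89520096 to 89523677 on chromosome 15 (mm10), had a lowest level of 34.2, a median of 50.5 and a highest of 75.4 CPM in Shank3, and 38.8, 57.9, 27.7, 31.7 and 23.4 CPM in WT. Its highest values came from Shank3 replicates 6, 2 and 4, the libraries of low pair share. Its log2 fold change was 0.61 ± 0.236, and with the pair share as a covariate it was 0.77 with an adjusted p of 0.00063 by edgeR's quasi-likelihood test. The sources used here do not say if reads were assigned by strand, so those of Shank3 and Gm15609 cannot be told apart. Which exons the ∆C allele removes is not given either, and this row does not check the genotype.

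Within 5 Mb of Shank3, 47 genes were measured, 26 above 0 and 21 below with a median of 0.03, and 1 of them, Gm15609, had an unadjusted p under 0.05 by edgeR (2.13%). In wider windows, chosen after the values were seen, 7 of 164 genes did within 10 Mb (4.27%), 11 of 229 within 12 Mb (4.80%) and 12 of 300 within 15 Mb (4.00%), beside 2.01% of all genes. Those within 12 Mb included Tuba1c, Nr4a1, Letmd1 and Fkbp11. Whether linked sequence from the mutant line plays a part was not tested.

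Besides Slc7a11 and Shank3, the genes with the smallest p were low in level and none passed. Tuba1c, an alpha tubulin, had a lowest level of 4.26, a median of 23.1 and a highest of 33.97 CPM in Shank3, and 2.81, 1.88, 10.1, 4.88 and 14.7 CPM in WT, with a log2 fold change of 1.52 ± 0.411. The groups overlapped in part, with 3 Shank3 libraries above every WT library. Tubulin genes are near-identical copies of each other, and how reads shared by them were counted is not given. In the libraries of low pair share the Tuba1c difference was 1.63, so it was as large there. Slc6a20b, a member of the Slc6 transporter family, had a lowest level of 17.3, a median of 29.5 and a highest of 54.4 CPM in Shank3. In WT it had 17.8, 19.8, 16.9, 13.9 and 22.4 CPM. Its 3 high values were Shank3 replicates 1, 3 and 5, and its log2 fold change of 0.82 ± 0.259 was 0.03 in the libraries of low pair share.

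The remaining higher genes had modest and overlapping differences. Csk, a kinase that restrains Src, had a log2 fold change of 0.95 ± 0.313, Anks3 0.72 ± 0.235, Letmd1 0.76 ± 0.261, Slc22a17, the receptor of lipocalin 2, 0.88 ± 0.304, and Hrh3, the histamine H3 receptor, 0.80 ± 0.278. Smco3 had 1.47 ± 0.485 at a mean of 3.61 ± 2.47 CPM in Shank3 and 1.45 ± 1.07 CPM in WT (SD, n = 6 and 5). Anks3 kept its size in the libraries of low pair share (0.81). Letmd1, Slc22a17 and Hrh3 had 0.23, 0.12 and 0.31 there. Exons of Slc6a20b, Smco3 and Hrh3, like those of Kctd18, Sgpp2 and Mmp19 among the lower genes, overlap a gene on the other strand, with the limit given for Shank3.

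Of the genes with every Shank3 library below every WT library, Mobp and Tia1 are given here, and neither passed the test. Mobp, a myelin protein of oligodendrocytes, had a lowest level of 7.24, a median of 8.59 and a highest of 12.4 CPM in Shank3, and 14.0, 14.6, 12.7, 13.6 and 18.0 CPM in WT. Every Shank3 library was below every WT library, by a log2 fold change of -0.64 ± 0.201, and -0.77 in the libraries of low pair share. Tia1, an RNA-binding protein of stress granules, had a lowest level of 2.47, a median of 4.84 and a highest of 6.13 CPM in Shank3, and 9.82, 9.41, 6.85, 7.66 and 6.51 CPM in WT. Its groups did not overlap either, at a log2 fold change of -0.74 ± 0.245. Neither passed the adjusted test. Among other myelin genes, Mbp had a log2 fold change of 0.04 ± 0.194 and Cnp 0.13 ± 0.262. In the libraries of low pair share these were -0.06 for Mbp and -0.53 for Cnp.

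Fkbp11, a prolyl isomerase of the endoplasmic reticulum, was lower by -0.96 ± 0.337, at a mean of 4.32 ± 2.21 CPM in Shank3 and 8.27 ± 2.50 CPM in WT (SD, n = 6 and 5). Lig4, the ligase of DNA end joining, had -0.62 ± 0.225, Phf6, a chromatin protein, -0.49 ± 0.212, and Cbwd1 -0.65 ± 0.264. Kctd18, Rsph6a, Arsk, Sgpp2, Slc26a6 and Mmp19 made up the rest of the 12 lower genes, with log2 fold changes between -1.23 and -0.66 at low counts. In all, 12 genes had every Shank3 library above every WT library (0.106% of 11341) and 11 had every Shank3 library below (0.097%). Random arrangement of 6 against 5 libraries would on average separate a larger share of genes, a fraction of 0.00433 over both directions. Besides Slc7a11, the higher ones included Meis2, a homeobox factor, with 56.8 ± 4.14 CPM in Shank3 and 45.0 ± 7.0 CPM in WT, Gabra3, a GABA-A receptor subunit, with 25.6 ± 3.09 CPM in Shank3 and 20.5 ± 1.64 CPM in WT, and Grm5, the metabotropic glutamate receptor mGluR5, with 13.9 ± 2.1 CPM in Shank3 and 10.7 ± 1.26 CPM in WT. The lower ones included Kpna4, a nuclear import receptor, with 45.8 ± 3.05 CPM in Shank3 and 57.7 ± 6.08 CPM in WT, and Cabp1, a neuronal calcium sensor, with 131.9 ± 11.4 CPM in Shank3 and 152.5 ± 5.20 CPM in WT (SD, n = 6 and 5 throughout).

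**Figure D3:**
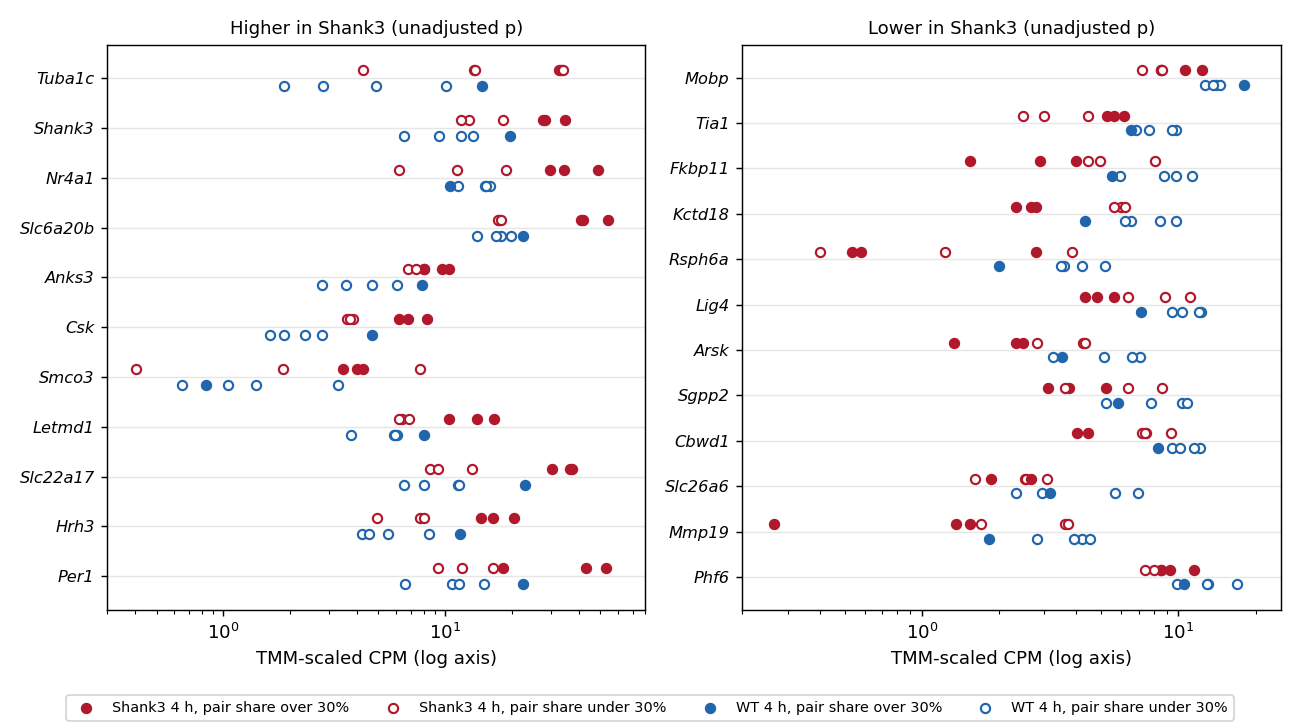
Levels in every 4 h library, as TMM-scaled CPM on log axes, of the 11 higher genes besides Slc7a11 (left) and the 12 lower genes (right) of smallest p. Red points above each line are Shank3 libraries and blue points below it WT libraries, filled where the pair share is over 30%. For most higher genes the filled points lie to the right in both genotypes, and Mobp and Tia1 show no overlap between the genotypes.

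Activity-regulated genes leaned higher in Shank3 mice, and no member passed. Of 29 rapid immediate early genes, 20 were measured, 17 above 0 and 3 below, with a median log2 fold change of 0.24, and 5 were higher at an unadjusted p under 0.05 by edgeR (Nr4a1, Fosb, Egr1, Egr2 and Fos), beside 1.5% of all genes. Nr4a1, an orphan nuclear receptor, had a lowest level of 6.18, a median of 24.2 and a highest of 48.9 CPM in Shank3, and 15.9, 15.1, 11.4, 15.3 and 10.5 CPM in WT. Shank3 replicates 1, 2, 3 and 5 were above all WT libraries, replicate 4 was among them and replicate 6 below them all, and the log2 fold change was 0.94 ± 0.29. In naive mice of cohort 2 it was 1.4 for Nr4a1 and 0.71 for Egr1, and the median of the rapid list there was 0.20. Egr1, a zinc finger factor, had a lowest level of 100.1, a median of 155.5 and a highest of 265.7 CPM in Shank3, and 124.4, 140.6, 91.6, 91.9 and 152.9 CPM in WT, with a log2 fold change of 0.54 ± 0.229. Its high values were Shank3 replicates 1, 3 and 5. Arc, a regulator of AMPA receptor traffic at synapses, had 8.05 to 84.1 CPM in Shank3 and 13.4 to 54.7 CPM in WT, a log2 fold change of 0.60 ± 0.4.

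The rapid list had a lower median in the libraries of low pair share alone. In the 7 libraries with a pair share under 30% the median of the list was -0.04, with Nr4a1 at -0.22, Egr1 at 0.04, Fos at -0.00 and Arc at -0.74. With the pair share as a covariate over all libraries the median was 0.21, with Nr4a1 at 0.75 and Fosb at 0.51. The mean centred log2 CPM of the list was 0.56, 0.33 and 0.26 in Shank3 replicates 1, 3 and 5 and -0.05 in WT replicate 5, which also has a high pair share. Among libraries of low pair share it was 0.02, -0.15 and -0.40 in Shank3 replicates 2, 4 and 6, within or beside the WT values of -0.01, -0.10, -0.20 and -0.24 in replicates 1 to 4. Shank3 libraries of high and low pair share thus differed from each other in the score of the list. The part of the pair share in it was not tested.

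Delayed activity-regulated genes also leaned higher, with no call. Of 40 listed, 31 were measured, 26 above 0 and 5 below, with a median of 0.27, and 7 were higher at an unadjusted p under 0.05 by edgeR (Per1, Nptx2, Dusp14, Bdnf, Fbxo33, Nr4a3 and Dusp5), beside 1.5% of all genes. The median was 0.25 with the pair share as a covariate and 0.16 in the libraries of low pair share. Nptx2, a secreted pentraxin that clusters AMPA receptors, had a lowest level of 7.41, a median of 9.73 and a highest of 20.5 CPM in Shank3, and 4.68, 2.82, 6.85, 6.27 and 11.3 CPM in WT. All Shank3 libraries were above WT replicates 1 to 4, and the log2 fold change was 0.83 ± 0.332, and 0.75 in the libraries of low pair share. Bdnf, the neurotrophin, had a lowest level of 17.0, a median of 19.2 and a highest of 22.2 CPM in Shank3, and 13.6, 14.1, 13.7, 10.4 and 17.0 CPM in WT. The groups touched only at WT replicate 5 and Shank3 replicate 1, with a log2 fold change of 0.45 ± 0.185, and 0.59 in the libraries of low pair share. An antisense gene overlaps Bdnf exons, so its reads carry the limit given for Shank3. In naive mice of cohort 2 the log2 fold change was 0.58 for Bdnf and 0.04 for Nptx2, and the median of the delayed list 0.05.

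Promoters of Nr4a1 and Per1 are shown because these 2 genes had the smallest p of the rapid and the delayed list, and because CREB, a factor activated by neuronal firing, binds the half-site TGACG. The 250 bases before the RefSeq starts are read from the GRCm38.p6 table, as chr15:101266596-101266845 for Nr4a1 and chr11:69099902-69100151 for the downstream of the 2 Per1 starts, both on the plus strand. TGACG and its reverse complement CGTCA are in capitals.
Nr4a1: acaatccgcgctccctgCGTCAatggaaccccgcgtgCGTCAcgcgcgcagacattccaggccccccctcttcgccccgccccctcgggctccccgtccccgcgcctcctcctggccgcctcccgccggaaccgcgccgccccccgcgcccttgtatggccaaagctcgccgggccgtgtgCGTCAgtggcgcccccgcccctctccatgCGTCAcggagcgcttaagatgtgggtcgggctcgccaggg
Per1: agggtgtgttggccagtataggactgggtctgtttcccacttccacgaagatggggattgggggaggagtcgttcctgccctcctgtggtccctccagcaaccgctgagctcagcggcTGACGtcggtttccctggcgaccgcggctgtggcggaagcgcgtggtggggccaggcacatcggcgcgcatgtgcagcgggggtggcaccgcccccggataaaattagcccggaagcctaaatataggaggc
The half-site matched 4 times in the Nr4a1 window and 1 time in the Per1 window, and the full TGACGTCA 0 times in both. Of all 32851 windows, 17.8% held the half-site and 1.55% the full site. The letters say nothing on what was bound here.

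**Figure D4:**
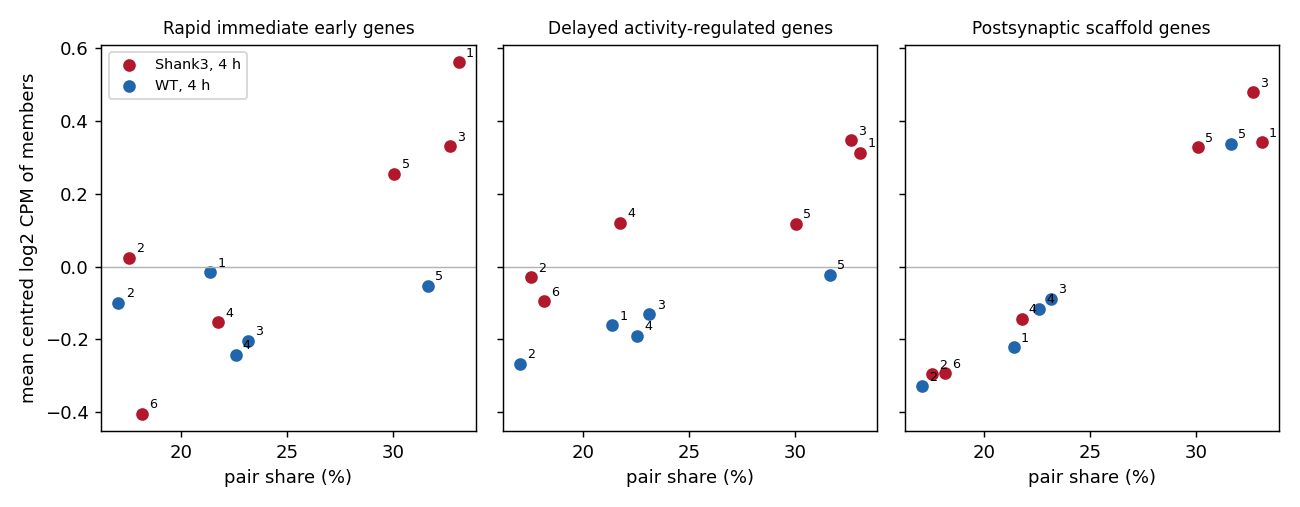
List scores, the average of the centred log2 CPM of all measured members, for 3 lists (vertical axis) against the pair share in percent (horizontal axis), for the 6 Shank3 (red) and 5 WT (blue) libraries at 4 h, numbered by replicate. The postsynaptic scaffold list is high in the libraries of high pair share of both genotypes, and the rapid list is high in Shank3 replicates 1, 3 and 5 and not in WT replicate 5.

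Clock and glucocorticoid genes gave no call. Per1, a period gene that both neuronal activity and glucocorticoids induce, had a lowest level of 9.26, a median of 17.4 and a highest of 53.3 CPM in Shank3, and 10.8, 6.59, 15.0, 11.5 and 22.5 CPM in WT. Shank3 replicates 1 and 3 stood above all others, and the log2 fold change of 0.93 ± 0.326 was 0.18 in the libraries of low pair share. Dbp, a clock output factor, had 0.36 ± 0.169. Of 23 clock genes, all measured, 16 were above 0 and 7 below. Their median was 0.17 over all libraries, 0.09 with the pair share as a covariate and -0.04 in the libraries of low pair share. Arntl, the core activator, had -0.07 ± 0.24 and Per2 0.27 ± 0.248. Of 33 glucocorticoid-responsive genes, 21 were measured, 12 above 0 and 9 below, with a median of 0.02. The receptor Nr3c1 had -0.00 ± 0.172, its target Fkbp5 -0.02 ± 0.21, Sgk1 0.51 ± 0.29 and Tsc22d3 0.24 ± 0.245. Arrdc2, an arrestin-domain gene, was below WT in every Shank3 library, with 2.01 to 3.20 CPM in Shank3 and 3.83 to 5.61 CPM in WT, a log2 fold change of -0.92 ± 0.398 that did not pass.

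Chaperones of the cytosol leaned lower and a pair of endoplasmic reticulum genes higher, without a call. Of 30 heat shock chaperones, 28 were measured, 21 below 0 and 7 above, with a median of -0.11 and log2 fold changes from -0.29 to 0.46. Dnajb4, a co-chaperone of Hsp70, had -0.29 ± 0.152, Hsph1 -0.17 ± 0.176, Hsp90aa1 -0.14 ± 0.21 and Hspa8 -0.11 ± 0.198. The list's median was -0.08 with the pair share as a covariate and -0.04 in the libraries of low pair share. Of 30 genes of the unfolded protein response in the endoplasmic reticulum, 21 were measured, 14 above 0 and 7 below, with a median of 0.08, which was 0.02 with the pair share as a covariate and 0.18 in the libraries of low pair share. In naive mice of cohort 2 the median of this list was -0.30. P4hb, a protein disulphide isomerase, had a lowest level of 6.19, a median of 11.2 and a highest of 14.2 CPM in Shank3, and 4.68, 6.11, 4.89, 5.57 and 9.51 CPM in WT. All Shank3 libraries were above WT replicates 1 to 4, and the log2 fold change was 0.65 ± 0.272, and 1.18 in the libraries of low pair share. Derl1, which moves misfolded proteins out of the endoplasmic reticulum, had 0.77 ± 0.345. Hspa5, the chaperone BiP, had -0.06 ± 0.242.

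Of 31 genes of sterol and lipid synthesis, 25 were measured, 21 above 0 and 4 below, with a median of 0.13, which was 0.03 with the pair share as a covariate and 0.06 in the libraries of low pair share. The median of the list was -0.09 in naive mice of cohort 2. Insig1, the sterol-regulated anchor of SCAP, had a lowest level of 5.61, a median of 9.18 and a highest of 11.7 CPM in Shank3, and 4.21, 3.29, 5.87, 6.62 and 7.18 CPM in WT. All but 1 Shank3 library were above every WT library, with a log2 fold change of 0.65 ± 0.254, and 0.89 in the libraries of low pair share. Acat2 had 0.49 ± 0.232 and Sqle 0.04 ± 0.255. None passed.

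The synaptic partners of Shank3 showed no called change. Of 47 postsynaptic scaffold genes, 46 were measured, 36 above 0 and 10 below, with a median of 0.13, and besides Shank3 the ones of smallest p were Shank1 at 0.44 ± 0.208 and Begain at 0.65 ± 0.323. Shank1 had a lowest level of 32.7, a median of 49.2 and a highest of 78.6 CPM in Shank3, and 28.5, 33.9, 34.2, 34.1 and 56.1 CPM in WT, with Shank3 replicates 1, 3 and 5 and WT replicate 5 high. Shank2 had 0.28 ± 0.18, Dlg4, which encodes PSD-95, 0.27 ± 0.232, and Homer1 0.14 ± 0.185. The median was 0.02 with the pair share as a covariate and -0.10 in the libraries of low pair share. Of 34 glutamate receptor genes 26 were measured, 20 above 0 and 6 below, with a median of 0.12. It was 0.09 with the pair share as a covariate and 0.06 in the libraries of low pair share. The AMPA subunits Gria1 and Gria2 had 0.04 ± 0.188 and -0.07 ± 0.174 and the NMDA subunit Grin2b 0.07 ± 0.159. Of 18 GABA receptor and gephyrin-related genes 17 were measured, 13 above 0, with a median of 0.11 that was 0.12 with the pair share and 0.09 in the libraries of low pair share. Voltage-gated channels (47 measured, median 0.09), presynaptic release genes (46 measured, 0.05), actin regulators (44 measured, 0.09) and histone modifiers (44 measured, 0.09) had medians of 0.01, -0.01, 0.03 and 0.06 with the pair share as a covariate and -0.09, -0.07, -0.03 and -0.02 in the libraries of low pair share.

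Genes of energy and protein synthesis had positive medians that were lower with the pair share as a covariate and in the libraries of low pair share. The part of the pair share in them was not tested. Among cytosolic ribosomal proteins, the 75 measured genes had a median of 0.16, which was 0.03 with the pair share as a covariate and 0.00 in the libraries of low pair share. The 78 measured nuclear genes of oxidative phosphorylation had 0.14, -0.02 and -0.12 in these 3 fits, and the 10 measured mitochondria-encoded genes 0.31, 0.08 and 0.08. Translation factors (46 measured) had medians of 0.05, -0.02 and -0.04, and mTOR pathway genes (29 measured) 0.04, -0.05 and -0.08. No member of these 5 lists passed. The mitochondria-encoded median was 0.41 in naive mice of cohort 2. Rps19, a protein of the small subunit, had 0.63 ± 0.368, with the high values in Shank3 replicates 1, 3 and 5 and in WT replicate 5.

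**Figure D5:**
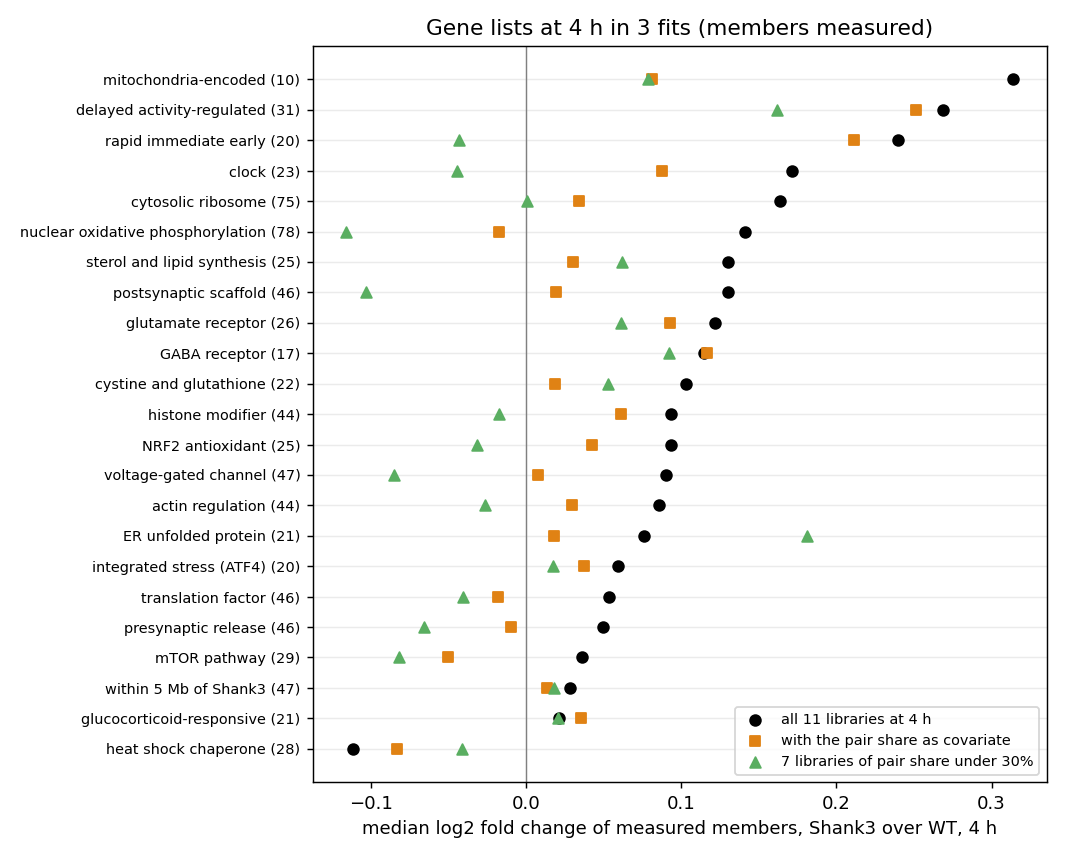
Median log2 fold change, Shank3 over WT at 4 h, of the measured members of 23 lists in 3 fits: all libraries (black), with the pair share as a covariate (orange), and with only the 7 libraries at 4 h of pair share under 30% (green). The delayed activity-regulated list is at 0.27, 0.25 and 0.16, while the scaffold, ribosomal and oxidative phosphorylation lists move to 0.03 or less in the other fits.

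Summed markers of other cells overlapped between the groups. Summed astrocyte markers ran from 108.2 to 149.5 CPM in Shank3 and 115.5 to 153.9 CPM in WT. Of 14 astrocyte markers 6 were measured, 1 above 0 and 5 below, with a median log2 fold change of -0.12, and -0.12 in naive mice of cohort 2. Summed oligodendrocyte markers ran from 149.5 to 351.3 CPM in Shank3 and 143.0 to 298.7 CPM in WT, most of it Cnp and Mbp. Interneuron markers ran from 112.4 to 243.9 CPM in Shank3 and 94.0 to 159.9 CPM in WT. Of 17 interneuron markers 7 were measured, 6 of them above 0 with a median of 0.51, beside 0.80 in naive mice of cohort 2. Cck, a neuropeptide gene also expressed by pyramidal neurons, gave most of that sum, with 85.3 ± 42.0 CPM in Shank3 and 59.7 ± 26.1 CPM in WT (SD, n = 6 and 5), and Gad1, which makes GABA, had 12.1 ± 7.55 CPM in Shank3 and 6.36 ± 4.30 CPM in WT. Pvalb alone of the measured interneuron markers was below 0, at -0.48, with 2.64 ± 0.956 CPM in Shank3 and 3.58 ± 0.953 CPM in WT. Summed endothelial and mural markers were at 1.70 to 4.42 CPM in Shank3 and 1.88 to 4.89 CPM in WT, with Cdh5, Cldn5, Kdr and Ly6c1 at 0. Choroid plexus markers were at 0.619 to 3.83 CPM in Shank3 and 0.941 to 7.68 CPM in WT, with Folr1 and Aqp1 at 0, and blood markers at 1.16 to 3.20 CPM in Shank3 and 0.468 to 2.82 CPM in WT. The microglial sum, 172.3 to 376.6 CPM in Shank3 and 176.2 to 397.9 CPM in WT, was nearly all on the row of Csf1r, which has an exon opposite another gene, while P2ry12 and Tmem119 had 2 and 4 counts in Shank3 against 0 and 1 in WT. The part of these markers in the differences above was not tested.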

How the data were processed

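The deposited tables hold raw counts by the authors, as whole numbers for 55470 gene identifiers in every library. Salmon 1.4, StringTie 2.1.3, HISAT2 2.2.0, DESeq2, FastQC, Trimmomatic 0.39 and mm10 are named per the submitters' processing notes, without saying which step made the counts. The libraries were stranded, and whether counting used the strand is not given in the sources used here. Symbols and positions were matched for 55143 identifiers (GENCODE vM21).

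The fit took in all 36 libraries, in edgeR 4.0.16 under R 4.3.3 (robust quasi-likelihood fit, TMM, filterByExpr), in 8 cells of genotype, treatment and cohort with 28 residual degrees of freedom. The contrast was Shank3 over WT at 4 h, with Benjamini-Hochberg adjustment over 11341 genes and a threshold of 0.05. SE is the absolute log2 fold change over the root of F. CPM are scaled by TMM. A gene that few counts kept from this test has its counts given. Lists are described by counts and medians, without a test. The members and lists were chosen with earlier results of these data known. Named genes were those past the threshold, Shank3, the 12 higher and 12 lower of smallest p whose mean log2 CPM reached 1 (no provisional names), the 3 of smallest p per list, and the 3 within 5 Mb of Shank3; others were named after their values were seen, and some are not reported here. Libraries were not tied to animals, and p-values reflect only how much these libraries vary, which may be technical.

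The pair share used 1676 antisense and 1727 coding rows whose exons overlap. Libraries of one group were compared in 25 pairs (chi-square per degree of freedom 1.46 to 28.8), and none was counted as a repeat. The fit was tested on simulated data. Alternatives used DESeq2 1.42.0 and limma 3.58.1, other scalings and filters, the pair share, and each library left out. The fit on libraries with a pair share under 30% was added after the data were seen.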

Additional observations from a re-analysis of the deposited data

Results flagged for a closer look

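In 306 groups of 4 to 10 libraries, 20 had a library far from the others by Dixon's test, and chance flags about 1 in 20 groups. WT replicate 5, the WT library of the highest pair share and total (3.52 M counts, itself far from the others), was the highest of its group for Dusp14 (38.1 CPM), Hsf1 (12.0 CPM), Shank1 (56.1 CPM), Begain (22.9 CPM), Cnih2 (24.7 CPM), Sirt2 (20.5 CPM), Ndufs7 (18.7 CPM), Sdhc (20.2 CPM), Nrxn2 (52.1 CPM), Cck (105.1 CPM) and Calb2 (1.67 CPM). Smco3 was far higher in WT replicate 2 (3.29 CPM) and Ggct in WT replicate 1 (21.5 CPM). Acat2 was far higher in Shank3 replicate 1 (20.1 CPM) than in the other Shank3 libraries, as were Grm5 in replicate 2 (17.9 CPM) and Sqle in replicate 5 (13.0 CPM). Arc (54.7 CPM) and Hspa8 (1447 CPM) were far higher in WT replicate 1, and Gria2 (57.1 CPM) far lower in WT replicate 5.

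Slc7a11 was also high in 3 libraries at 1 h, outside the 4 h comparison, with 249.0 CPM in Shank3 replicate 3, against 188.3 CPM in WT replicate 2 and 238.1 CPM in WT replicate 4. These levels lie in or near the range of the 6 Shank3 libraries at 4 h. In the same order, the pair shares of these 1 h libraries were 16.8%, 17.0% and 16.3%. The other 1 h libraries had lower pair shares, of 11.4% to 14.9%. The part of the pair share in these levels was not tested.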

How the results depend on the processing

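Slc7a11 kept its direction and its call in all 25 alternatives in which it was tested, with log2 fold changes of 4.77 to 5.10 and adjusted p up to 0.00987. The fit restricted to genes with none on the opposite strand leaves Slc7a11 out and called 0 genes (119 at an unadjusted p under 0.05 by edgeR). The count of called genes, 1, was 5 without a filter on low counts, 3 with the pair share as a covariate, and 2770 (1289 higher, 1481 lower) by limma-voom with quality weights, where limma-voom without them called 1, and the cause was not tested. It was 1 with each library left out. The 3 genes with the pair share were Slc7a11, Gm15609 and AC157548.1. For the interaction the count, 0, was 1 by DESeq2, 1 in cohort 2 only, 1 without robust estimation, 2 with quality weights and 5 without a filter, and from 0 to 1 with each library left out, where it was 1 without WT replicate 4. The interaction of Slc7a11 passed at 4.36 by DESeq2, 4.37 in cohort 2, 4.04 with quality weights, 4.36 without a filter, 4.37 without robust estimation, and at 4.23 to 4.56 with libraries left out, past the threshold only without WT replicate 4. Relative to the median of all genes, 6 of 751 list medians moved by more than 1 SD of the list's score between libraries of a genotype. In libraries of low pair share these were the rapid genes (-0.052), the unfolded protein response (0.17), voltage-gated channels (-0.094) and hippocampal markers (-0.11), then GABA receptors among genes with none opposite (0.0051) and the neighbours of Shank3 with quality weights (0.15). Other lists turned direction within that SD, such as oxidative phosphorylation (-0.12) and postsynaptic scaffolds (-0.11) in libraries of low pair share. For oxidative phosphorylation that SD was 0.39, beside a median of 0.14 relative to all genes in the main fit. The low number of moved medians therefore does not show that the medians are stable.

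Of 3732 results for 147 other genes named in the text or by the rule, 130 reversed, in 47 genes, many of them near 0. In libraries of low pair share the log2 fold changes that reversed were Nr4a1 -0.22, Taldo1 -0.076, Hsf1 -0.15, Nlgn2 -0.020, Gabbr2 -0.13, Actb -0.072, Wasf1 -0.027, Arpc3 -0.027, Ndufb7 -0.16, Napa -0.31, Kcnh3 -0.071, Eif3f -0.041, Eif2b2 -0.47, Mlst8 -0.23, Cnp -0.53, Mbp -0.062, Csf1r 0.17, Mpped1 -0.26, Arc -0.74, Asns -0.046, Atf4 -0.20, Ddit3 0.17, Dlg4 -0.16, Elf2 0.18, Fos -0.0042, Gclc 0.020, Gria2 0.12, Gsr -0.16, Gss 0.069, Hsp90aa1 0.040, Hspa5 0.26, Maml3 -0.15, Ndufc1 -0.52, Noct -0.055, Nr3c1 0.010, Psat1 -0.43, Shank2 -0.049 and Sqle -0.16. With opposite rows summed they were Gstm5 -0.12, Csnk1e -0.12, Kcnh3 -0.0019, Mlst8 -0.19, Cnp -0.086, Arntl 0.0069, Dusp5 -0.023 and Nr3c1 7.6e-05. With the pair share as a covariate they were Cnp -0.11, Mbp -0.052, Csf1r 0.048, Mpped1 -0.018, Atf4 -0.075, Ddit3 0.073, Gria1 -0.018, Gsr -0.092, Ndufc1 -0.11, Psat1 -0.051, Sqle -0.073 and Txnrd1 -0.028. With quality weights they were Gpr17 -0.053, Fkbp5 0.018, Gria1 -0.010, Grin2b -0.13, Nr3c1 0.013 and Txnrd1 -0.040. Among genes with none opposite they were Atf4 -0.029, Gria1 -0.0067, Gsr -0.018 and Sqle -0.0093. By DESeq2 they were Fkbp5 0.011 and Nr3c1 0.024. With RLE scaling they were Fkbp5 0.011 and Nr3c1 0.025. With the replicate block they were Fkbp5 0.038 and Hspa5 0.016. In 4 h libraries only it was Nr3c1 5.6e-04. With the CPM filter it was Txnrd1 -0.0061. In cohort 2 only it was Txnrd1 -0.0048. By limma-voom it was Txnrd1 -0.0024. With each library left out, the ranges of those that reversed were -0.089 to 0.29 for Cnp, -0.059 to 0.20 for Mbp, -0.0046 to 0.16 for Gpr17, -0.24 to 0.088 for Csf1r, -0.063 to 0.087 for Atf4, -0.16 to 0.071 for Ddit3, -0.20 to 0.044 for Elf2, -0.080 to 0.058 for Fkbp5, -0.13 to 0.031 for Gclc, -0.0031 to 0.073 for Gria1, -0.18 to 0.0052 for Gria2, -0.039 to 0.10 for Gsr, -0.31 to 0.015 for Gss, -0.14 to 0.022 for Hspa5, -0.048 to 0.42 for Maml3, -0.048 to 0.35 for Ndufc1, -0.056 to 0.041 for Nr3c1, -0.11 to 0.15 for Sqle and -0.038 to 0.057 for Txnrd1.

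Same-numbered libraries of the genotypes did not deviate together in all 5 pairs (r from -0.24 to 0.72, 2 over 0.1, and 2 of 5 WT libraries correlated best with their own number), so the numbers are not taken to pair them. With the replicate block 1 gene was called, Slc7a11 at 4.98 with an adjusted p of 1.62e-05 by edgeR. The totals were 1.28 to 3.52 M counts, and some listed genes had too few counts for the test. The common biological coefficient of variation was 24.2%, and 13.3% with the pair share as a covariate.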
